A study of Sus scrofa with 4 samples.

Results

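Glucocorticoid-responsive genes were examined in porcine intramuscular adipocytes: the glucocorticoid receptor NR3C1, the enzyme HSD11B1 that supplies its hormone inside the cell, and 6 genes known as targets of the receptor (FKBP5, TSC22D3, PER1, DUSP1, SGK1 and ZBTB16). The members were found by their gene name on the array, among non-control probes. This matching used no measured values, but the members and the wider gene lists below were chosen with earlier results of these data known. Of the 8 members, 6 had a probe, with 17 probes in all, among 6434 gene symbols on the array. DUSP1, a phosphatase that switches off MAP kinases, and ZBTB16, a zinc finger transcription factor, matched no probe by name or by RefSeq accession and were not analysed here.

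Expression was measured on 4 single-color Agilent porcine arrays, 1 per group, each hybridised with RNA pooled within the group. The PIP group held undifferentiated cells of a porcine intramuscular preadipocyte line derived from the longissimus thoracis muscle of a Duroc pig, used between passages 26 and 35. The pMA group held cells of that line which, from 4 days after confluence, had been kept for 4 days in differentiation medium with 10% serum, 50 ng/ml insulin, 0.25 µM dexamethasone, 2 mM octanoate and 200 µM oleate. The other groups were pMA stimulated for 12 h with 100 µM serotonin or with 2.5 µg/ml TNF-α, a cytokine of inflammation. Dexamethasone is a synthetic glucocorticoid, and all 3 pMA groups had met it while PIP cells had not. The pMA to PIP comparison thus carried dexamethasone, insulin, fatty acids and days in culture together, and the part of each cannot be told apart. Whether dexamethasone stayed in the medium during the 12 h of stimulation is not given in the sources used here. With 1 line and 1 array per group there were no replicates, so no test was possible, no p-value is given, and array and group cannot be told apart. The ratios of both stimulated groups to pMA share the pMA array.

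Glucocorticoids enter cells freely and bind the receptor NR3C1, which waits in the cytoplasm in a complex with HSP90 and co-chaperones. The bound receptor moves to the nucleus, binds DNA response elements beside its target genes, and dampens NF-κB and AP-1 at inflammatory genes. In fat cells glucocorticoids promote the differentiation of preadipocytes, which is why dexamethasone is part of most adipogenic media, and HSD11B1 regenerates active cortisol from cortisone within adipose tissue.

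The array read each gene through probes of 60 bases, and several members had probes at different places on 1 transcript, so agreement between probes could be examined. The sequences shown are those for which probe position matters to the results, written as the array files give them, 5′ to 3′, each named by its gene and by the position of its first base on the transcript it was designed on. FKBP5 is shown because its 3 probes, which do not overlap, gave the most alike ratios of any member with several probes measured on both arrays in the pMA to PIP comparison.
FKBP5 probe at base 613: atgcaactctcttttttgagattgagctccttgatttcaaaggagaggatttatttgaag
FKBP5 probe at base 796: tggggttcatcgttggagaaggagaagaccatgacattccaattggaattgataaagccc
FKBP5 probe at base 978: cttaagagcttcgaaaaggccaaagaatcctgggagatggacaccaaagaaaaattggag
NR3C1 is shown because its probes did not agree on the change between PIP and pMA, and these are its probes at 2 internal positions.
NR3C1 probe at base 605: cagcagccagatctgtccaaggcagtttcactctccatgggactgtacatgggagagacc
NR3C1 probe at base 2007: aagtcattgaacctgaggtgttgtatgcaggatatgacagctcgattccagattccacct
HSD11B1 is shown because it alone of the members passed 2-fold after TNF-α, at several separate places of its transcript. Capitals mark the 17 bases that end the probe at base 769 and begin the probe at base 812, which therefore share part of their target and are not independent readings.
HSD11B1 probe at base 625: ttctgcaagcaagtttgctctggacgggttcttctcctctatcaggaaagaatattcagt
HSD11B1 probe at base 769: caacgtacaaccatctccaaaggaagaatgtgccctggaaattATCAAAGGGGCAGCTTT
HSD11B1 probe at base 812: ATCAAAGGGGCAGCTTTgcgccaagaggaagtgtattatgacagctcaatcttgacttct

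Levels are log2 signals relative to the 75th percentile of each array, so that 0 is a probe at that percentile and a difference of 1 is a 2-fold change. A probe was measured where the scanner software called its spot well above background, and a gene was represented by its brightest probe. Across arrays 56.5% to 66.0% of spots were well above background, with the highest share on the TNF-α array, and repeated spots of 1 probe within an array had a SD of 0.10 to 0.13 on the log2 scale. This SD gives an error of 0.15 to 0.17 for a log2 ratio of 2 arrays, which covers spot noise only and not the spread between cultures. No member spot was saturated or marked as an outlier.

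**Figure D1:**
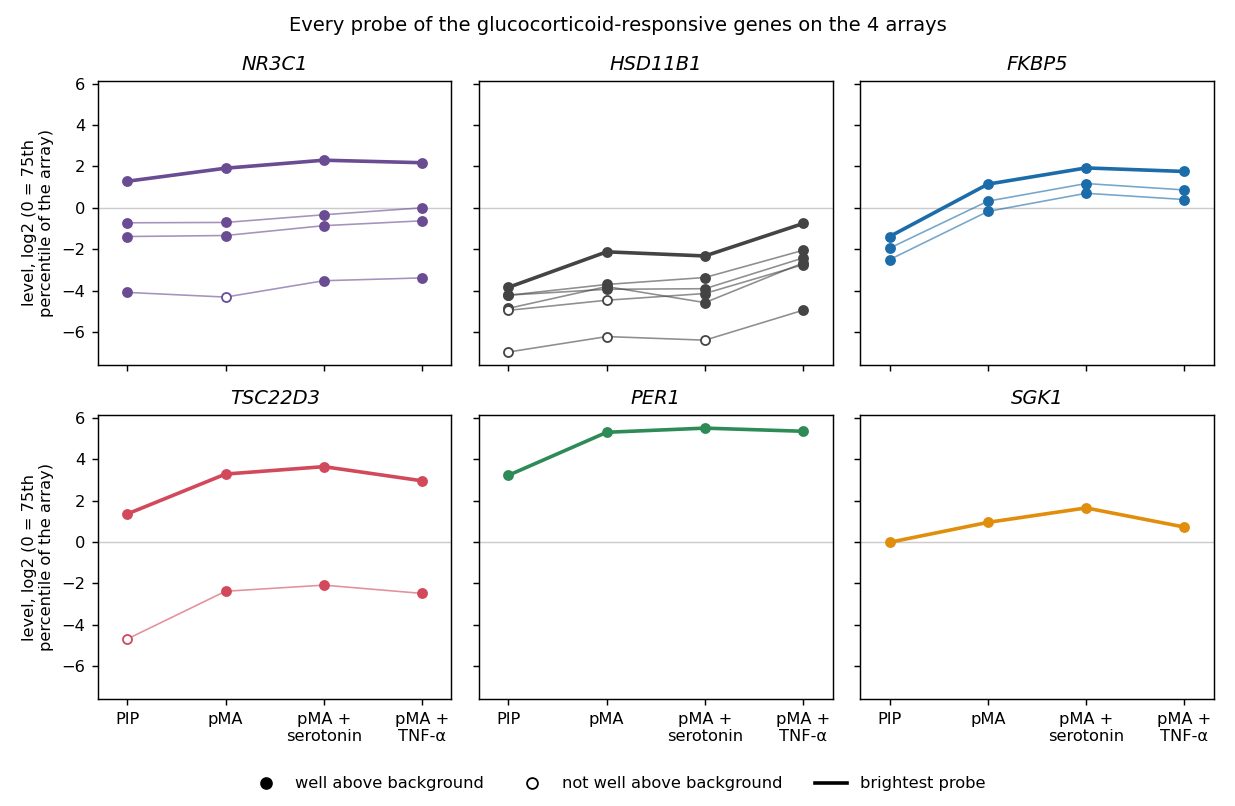
Levels of all 17 member probes on the 4 arrays, on a log2 axis on which 0 is the 75th percentile of the array, with 1 line per probe and a thick line for the brightest probe of each gene. Filled points were well above background and open points were not. The 3 FKBP5 lines run side by side, and all HSD11B1 lines are highest on the TNF-α array.

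By their brightest probes all 6 members were higher in pMA than in PIP, with a median log2 ratio of 1.82, against 0.02 for the 5087 gene symbols with a ratio. At least 2-fold higher were 4 of the 6 members (FKBP5, PER1, TSC22D3 and HSD11B1), beside 7.45% of gene symbols, although HSD11B1 did not pass with normexp background correction or by the median over its probes. These 4 were also at least 2-fold higher than PIP on each of the 3 pMA arrays, stimulated or not, as were 3.7% of the 4893 gene symbols well above background on those arrays.

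NR3C1, the receptor itself, gave no single answer for differentiation. Its brightest probe, at base 3187 of its transcript, had levels of 1.28 in PIP, 1.92 in pMA, 2.30 after serotonin and 2.18 after TNF-α. The log2 ratio of pMA to PIP was 0.63 for this probe, but the probe at base 605 stood at -0.72 in PIP and -0.70 in pMA, a ratio of 0.02, and that at base 2007 gave 0.05. A faint probe on another source sequence was well above background in PIP and not in pMA. Receptor mRNA was thus higher in pMA by 1 of its 4 probes, beyond the spot noise, while both internal probes lay within that noise.

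After stimulation the 4 NR3C1 probes agreed in sign. Each was higher than in pMA after serotonin and after TNF-α. Against pMA, the 3 probes measured on both arrays gave log2 ratios of 0.37 to 0.48 after serotonin and of 0.27 to 0.71 after TNF-α, in each case under 2-fold. The order of the stimulated arrays depended on the probe: the brightest was 0.12 higher after serotonin than after TNF-α, and the other 3 were lower, down to -0.33.

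HSD11B1, an enzyme of the endoplasmic reticulum that turns inactive cortisone into cortisol, was higher in pMA than in PIP and higher again after TNF-α. Its brightest probe, at base 1285, had levels of -3.84 in PIP, -2.12 in pMA, -2.32 after serotonin and -0.75 after TNF-α. The pMA level was 3.28-fold that of PIP, and the TNF-α level was 2.58-fold that of pMA and 8.47-fold that of PIP. HSD11B1 was the single member past 2-fold after TNF-α, as were 3.01% of gene symbols, and 76 of 4947 symbols measured on both arrays had a larger ratio.

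HSD11B1 was faint, and its 6 probes were read one by one for that reason. The scanner signal of the brightest probe ran from 36.0 in PIP to 331 after TNF-α, while the faintest spots well above background had signals of 14.7 to 19.3. All 6 probes were highest on the TNF-α array, and the 5 with a ratio to pMA were each at least 2-fold higher, with log2 ratios from 1.14 to 1.72, of which the largest is a lower bound because that probe was dim in pMA. The probe at base 105 was well above background on the TNF-α array alone, at -4.94. Between PIP and pMA the probes were less even, since the 4 probes measured in PIP and pMA were all higher in pMA but by log2 ratios from 0.28 to 1.71, and 2 of the 4 passed 2-fold. By the median over these probes the ratio was 0.79, and with normexp background correction that of the brightest probe was 0.96, both below 2-fold. With serotonin the probes did not agree in sign, running from -0.77 to 0.34 against pMA.

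The enzyme was lower after serotonin than after TNF-α by each probe. By the brightest probe the level was 2.96-fold lower. It was the 1 member at least 2-fold lower in this comparison, as were 6.31% of gene symbols. Of the 6 probes, 5 were at least 2-fold lower, and the sixth gave only a bound under 2-fold.

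Other genes of steroid supply and removal were few among the probes matched by name. Of 18 listed genes 11 had a probe and 7 a ratio between pMA and PIP. All 7 were higher in pMA, beside 51.2% of gene symbols, with a median log2 ratio of 0.49. Past 2-fold were HSD11B1 and CYP11A1, the mitochondrial enzyme that makes pregnenolone from cholesterol. They were 28.6% of the 7, beside 7.45% of gene symbols at least 2-fold higher. CYP11A1 stood at -2.25 in PIP, 1.11 in pMA, -0.28 after serotonin and 1.20 after TNF-α. Its log2 ratio was 3.36 for pMA to PIP and -1.40 for serotonin to pMA. HSD11B1 and CYP11A1 were the 2 genes of the list at least 2-fold lower after serotonin than after TNF-α. That is 28.6% of those with a ratio, beside 6.31% of gene symbols. CYP17A1, MC2R and SULT2A1 were not well above background on any array.

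FKBP5, a co-chaperone that sits on HSP90 and lowers the affinity of the receptor for hormone, showed the largest change of the members. Its probe at base 978 had levels of -1.38 in PIP, 1.15 in pMA, 1.93 after serotonin and 1.76 after TNF-α. The PIP array was low and the 3 pMA arrays were high, with a pMA level 5.78-fold that of PIP. Among 4790 gene symbols measured in both, 16 had a larger ratio. The probe at base 796 went from -1.94 in PIP to 0.32 in pMA and that at base 613 from -2.50 to -0.17, so the 3 log2 ratios lay between 2.27 and 2.53.

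Both stimulated arrays were above pMA for FKBP5 by all 3 probes. The log2 ratios lay between 0.78 and 0.88 after serotonin and between 0.54 and 0.61 after TNF-α, larger than the spot noise and below 2-fold. Against PIP the brightest probe reached 9.94-fold after serotonin and 8.83-fold after TNF-α.

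The rest of the receptor complex on the array stayed within 2-fold, as most gene symbols did. Of 23 listed chaperones, co-chaperones and coregulators 14 were measured, and FKBP5 alone of them differed by 2-fold in any of the 4 comparisons. It was 7.14% of the 14 in pMA against PIP, beside 7.45% of gene symbols at least 2-fold higher. The count is thus near that share. The median log2 ratio of the 12 that are not members was 0.07 for pMA to PIP, 0.22 after serotonin and -0.12 after TNF-α. For all gene symbols these medians were 0.02, 0.04 and -0.03. FKBP4, the related co-chaperone that helps the receptor move to the nucleus, had a log2 ratio of 0.24 for pMA to PIP, 0.75 for serotonin and -0.07 for TNF-α. Within the FKBP family of prolyl isomerases 7 of 14 genes were measured, and the 6 other than FKBP5 had a median of 0.04 for pMA to PIP. None of these 6 passed 2-fold. With FKBP5, 14.3% of the measured family did, beside 7.45% of gene symbols at least 2-fold higher.

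TSC22D3, also called GILZ, is a leucine zipper protein that carries part of the anti-inflammatory action of glucocorticoids by binding NF-κB and AP-1. Its brightest probe, at base 1671, had levels of 1.36 in PIP, 3.28 in pMA, 3.64 after serotonin and 2.96 after TNF-α. All 3 pMA arrays were above PIP, and pMA was 3.80-fold higher. The other probe, at base 320, was not well above background in PIP and stood at -2.38 in pMA, -2.08 after serotonin and -2.48 after TNF-α, which puts pMA at least 4.94-fold above PIP.

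The stimulations left TSC22D3 close to pMA, on opposite sides. Against pMA its probes gave log2 ratios of 0.30 and 0.36 after serotonin and of -0.10 and -0.32 after TNF-α. Serotonin against TNF-α gave 0.68 by the brightest probe and 0.40 by the other. TSC22D2, the sole other measured gene of the family, was at 0.34 for pMA to PIP, -0.36 for serotonin and -0.28 for TNF-α.

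PER1, a repressor of the circadian clock whose gene the receptor acts on directly, had levels of 3.22 in PIP, 5.30 in pMA, 5.50 after serotonin and 5.35 after TNF-α by its single probe. The PIP array stood apart and the 3 pMA arrays were within 0.20 of each other, with pMA 4.21-fold above PIP. Against pMA the log2 ratio was 0.20 after serotonin and 0.05 after TNF-α, the latter within the spot noise.

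Other clock genes went both ways between PIP and pMA. Of 18 listed, 6 had a probe and 5 a ratio, and of the 4 other than PER1, 2 were higher in pMA and 2 lower. BHLHE41, a repressor of the clock, was also higher in pMA, with a log2 ratio of 1.72, but was lower than pMA after serotonin, at -1.44, and after TNF-α, at -1.37. PER2, the paralog of PER1, had a log2 ratio of 0.57 for pMA to PIP and of -1.41 for serotonin to pMA.

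SGK1, a kinase that regulates ion channels and transporters and was named for its induction by serum and glucocorticoids, fell just short of 2-fold. Its single probe had levels of -0.01 in PIP, 0.95 in pMA, 1.65 after serotonin and 0.72 after TNF-α, so that pMA was 1.95-fold above PIP. Serotonin gave the highest level, with a log2 ratio to pMA of 0.70, and TNF-α a lower one, at -0.22. Serotonin against TNF-α was 0.92, the largest such difference among the members in that direction, and 137 of 5080 gene symbols had a larger one. Of the SGK family and its substrates 8 had a ratio between pMA and PIP, and NDRG1, which SGK1 phosphorylates, was the 1 past 2-fold, at 1.15. That is 12.5%, beside 7.45% of gene symbols at least 2-fold higher.

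**Figure D2:**
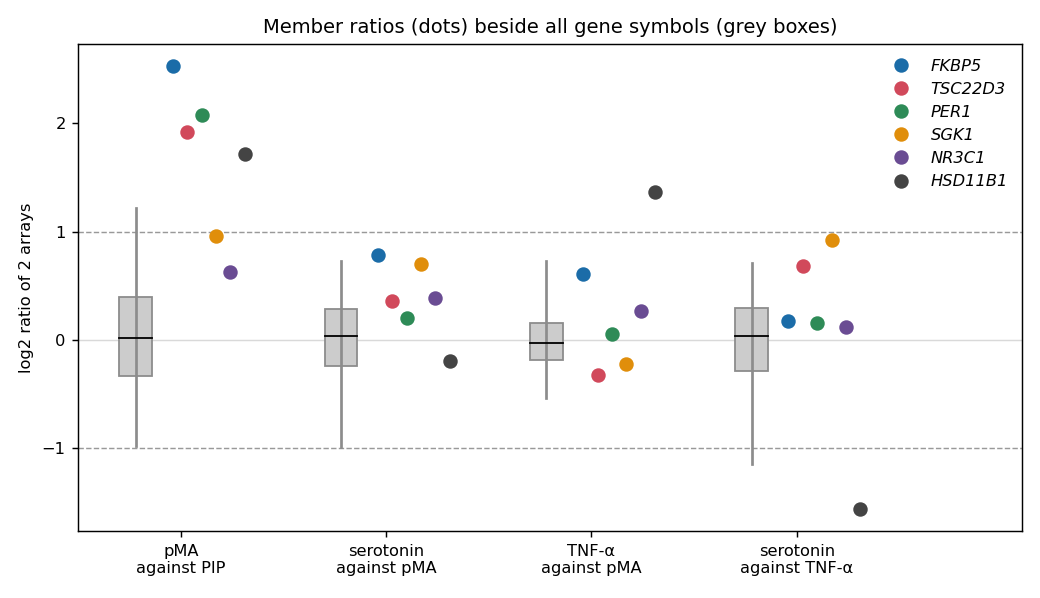
Log2 ratios of 2 arrays for the 6 members (dots, brightest probe) in the 4 comparisons, beside all gene symbols with a ratio (box, 25th to 75th percentile with the median as a line, and whiskers from the 5th to the 95th percentile). Dashed lines mark 2-fold. In the pMA to PIP comparison FKBP5, PER1, TSC22D3 and HSD11B1 lie above the upper whisker, and after TNF-α HSD11B1 does.

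After the stimulations the members separated. After serotonin all 6 were within 2-fold of pMA, where 2.46% of gene symbols were at least 2-fold higher and 4.87% lower. Of the 6, 5 were above pMA, beside 54.2% of gene symbols. The median log2 ratio of the members was 0.37, beside 0.04 for all gene symbols. PER1, at 0.20, was only a little above the spot noise of 0.15 in this comparison. With TNF-α the median was 0.16 beside -0.03, with HSD11B1, FKBP5 and NR3C1 above pMA, TSC22D3 and SGK1 below it, and PER1 above it by 0.05 but at -0.03 with median scaling. No member was 2-fold lower than pMA after TNF-α, as 1.18% of gene symbols were. Between serotonin and TNF-α, where 2.12% of gene symbols were at least 2-fold higher with serotonin, 5 of the 6 members were higher with serotonin, by up to 0.92, beside 53.0% of gene symbols higher at all. Of these 5, PER1 and NR3C1 lay within the spot noise of 0.16, FKBP5 was barely above it, and NR3C1 was at -0.19 by the median over its probes.

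Scaling by 1 constant per array shifts all ratios of an array pair together. Median scaling put the median log2 ratio of gene symbols between pMA and PIP at -0.33, and scaling to spike-in controls put it at 0.41. Under these scalings SGK1 ran from 0.61 to 1.34, and NR3C1 by its brightest probe from 0.28 to 1.01. Taken relative to the median of gene symbols, SGK1 was 0.94 to 0.97 higher, FKBP5 2.46 to 2.51 and HSD11B1 1.43 to 1.70 in pMA over the 4 scalings tried. The lowest HSD11B1 value came from quantile normalization, which moves probes unequally and put its log2 ratio at 1.44 and that of PER1 at 2.18. Normexp background correction brought the HSD11B1 ratio to 0.92 for TNF-α to pMA, below 2-fold.

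A wider list of genes known to be induced by glucocorticoids in many cell types was also higher in pMA than in PIP. Of 69 listed genes 45 had a probe and 41 a ratio, of which 15 were at least 2-fold higher and 1 lower in pMA, that is 36.6% and 2.44%, beside 7.45% and 4.8% of gene symbols. The median log2 ratio was 0.79. Leaving out the members, 12 of 37 genes were at least 2-fold higher and the median was 0.54. On all 3 pMA arrays at once 13 of 40 were at least 2-fold above PIP, beside 3.7% of gene symbols. Of the 36 of these genes that are not members, 10 were.

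The largest changes of that list between PIP and pMA lay outside the members. ADAMTS1, a secreted protease of proteoglycans, was at -2.41 in PIP and 2.31 in pMA. AGT, the precursor of angiotensin, was at -2.21 and 1.88, and ANGPTL4, an inhibitor of lipoprotein lipase, at -1.24 and 2.70. PDK4, the kinase that shuts off pyruvate dehydrogenase and spares glucose, was not well above background in PIP and gave a lower bound of 4.81 for its log2 ratio. EDN1, the vasoconstrictor endothelin-1, ran against the list, from 1.09 in PIP to -2.24 in pMA.

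**Figure D3:**
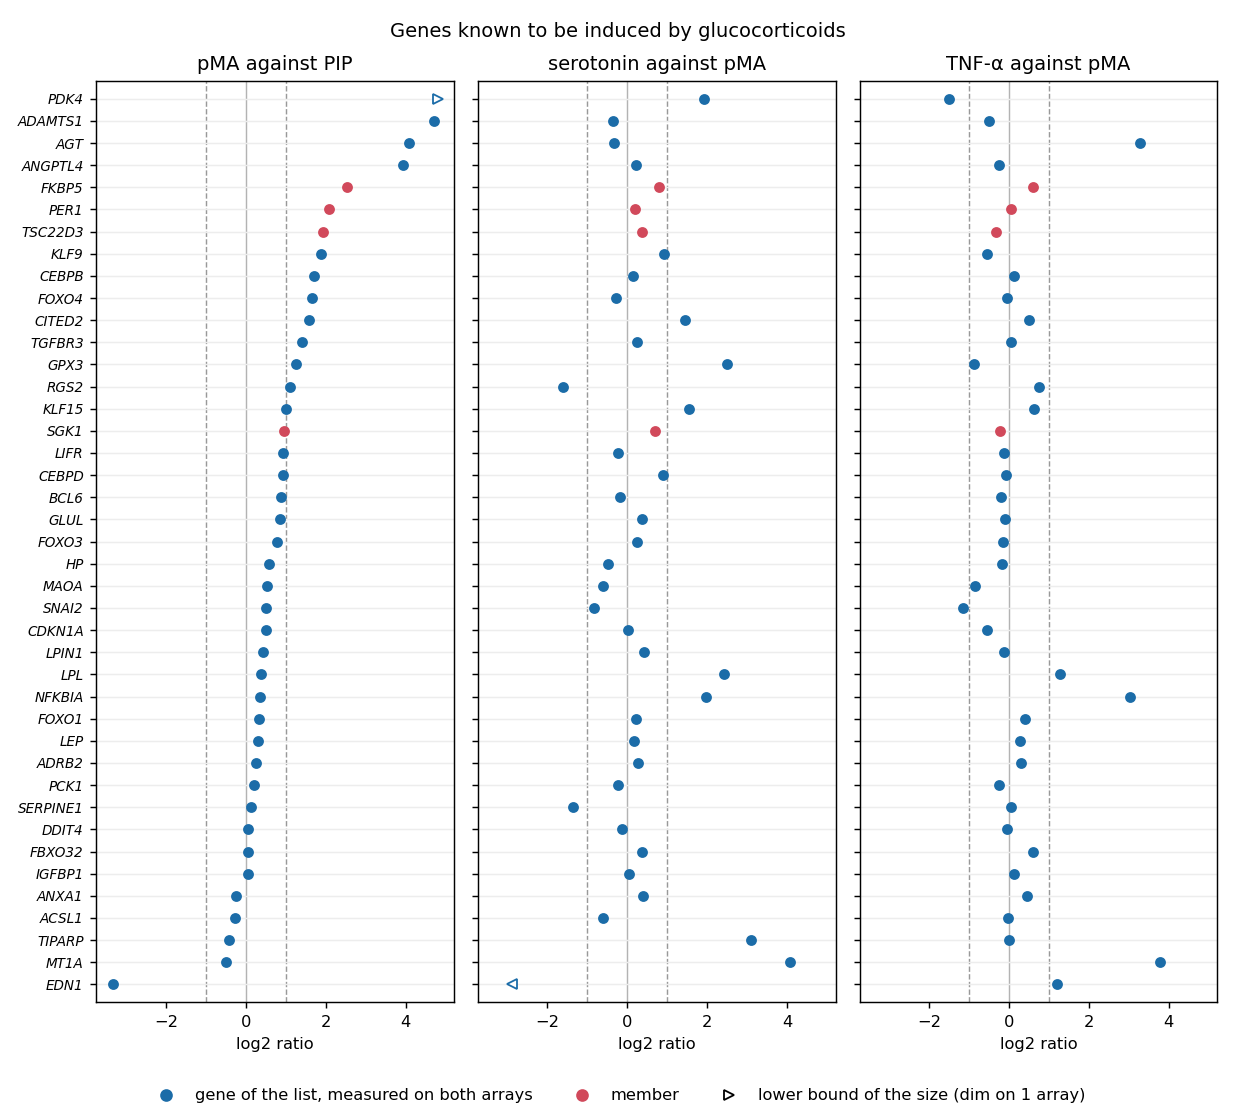
Log2 ratios for the genes of the list induced by glucocorticoids in many cell types that had a ratio in at least 1 of 3 comparisons, ordered by pMA against PIP. Circles were measured on both arrays (red, members), open triangles are lower bounds of the size, and dashed lines mark 2-fold. Most points lie right of 0 for pMA against PIP, and EDN1 lies at -3.33.

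The median of this list lay near that of all gene symbols after TNF-α and above it after serotonin. A larger share of the list than of all gene symbols passed 2-fold after each. After serotonin 8 of 41 were at least 2-fold higher and 3 lower, that is 19.5% and 7.32% beside 2.46% and 4.87% of gene symbols, with medians of 0.23 and 0.04. After TNF-α 5 of 41 were higher and 2 lower, that is 12.2% and 4.88% beside 3.01% and 1.18%, with medians of -0.02 and -0.03. MT1A, a metal-binding metallothionein, was -1.26 in pMA, 2.80 after serotonin and 2.53 after TNF-α. NFKBIA, the inhibitor of NF-κB and itself a target of NF-κB, was higher by 3.04 with TNF-α, and AGT by 3.29. After serotonin TIPARP, an ADP-ribosyltransferase, was higher by 3.08 and GPX3, a secreted glutathione peroxidase, by 2.49, while RGS2, a brake on G protein signaling, was at -1.60. PDK4 differed by stimulus, at 1.91 after serotonin and -1.49 after TNF-α. Between the stimulations 5 of 42 were at least 2-fold higher with serotonin and 5 lower, 11.9% each way beside 2.12% and 6.31% of gene symbols, and with median scaling these counts were 9 and 4.

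For genes that glucocorticoids are known to repress in inflamed cells the sign of the median between PIP and pMA depended on the scaling. The median of all gene symbols shifted with it, and that of the list was the lower in each scaling given here. Of 18 with a ratio, 1 was at least 2-fold higher and 3 lower, that is 5.56% and 16.7% beside 7.45% and 4.8% of gene symbols, with medians of -0.17 and 0.02. Median scaling gave 0 higher and 7 lower, with a median of -0.44 beside -0.33 for all gene symbols. Spike-in scaling gave 3 higher and 1 lower, with a median of 0.29 beside 0.41. Of all gene symbols 187 were at least 2-fold higher and 564 lower of 5130 with median scaling. With spike-in scaling these were 831 and 129 of 5040. PTGS2, the inducible cyclooxygenase, was at -2.39, and CXCL10 and CCL5, which attract T cells, at -1.15 and -1.09, whereas CCL2, which attracts monocytes, was at 1.21. No group was stimulated without having met dexamethasone.

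More of these genes were higher than lower after TNF-α. Of 21 with a ratio 8 were at least 2-fold higher and 1 lower, that is 38.1% and 4.76% beside 3.01% and 1.18% of gene symbols, with medians of 0.73 and -0.03. The largest measured were CCL20 at 3.59, MMP1 at 3.56 and CXCL2 at 3.27, a chemokine for lymphocytes, a collagenase and a chemokine for neutrophils. After serotonin 5 of 20 were at least 2-fold higher, led by MMP1 at 4.34, IL1A at 3.79 and PTGS2 at 3.29, and 4 were lower, that is 25% and 20% beside 2.46% and 4.87% of gene symbols. Between the stimulations 2 of 21 were at least 2-fold higher with serotonin and 7 lower, that is 9.52% and 33.3% beside 2.12% and 6.31%, with CXCL10 at -3.09.

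**Figure D4:**
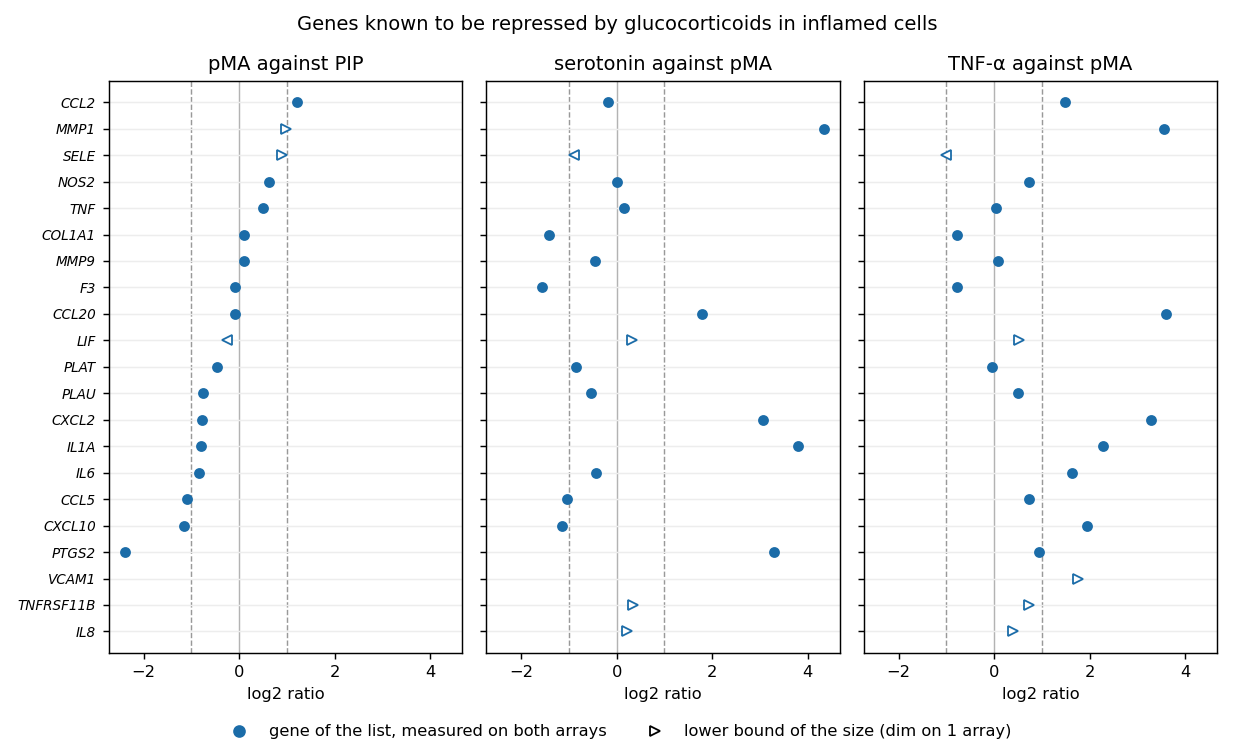
Log2 ratios for the genes of the list repressed by glucocorticoids in inflamed cells, ordered by pMA against PIP, with open triangles for lower bounds of the size and dashed lines at 2-fold. After TNF-α 8 of 21 genes lie right of the 2-fold line, and after serotonin genes lie beyond it on both sides.

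DUSP1 was not analysed here, and of 19 listed dual-specificity phosphatases 2 matched a probe by name, DUSP6 and DUSP7, which act on ERK. DUSP6 had a log2 ratio of 0.51 for pMA to PIP, 1.17 for serotonin to pMA and -0.28 for TNF-α to pMA. DUSP7 was at 0.66, 0.28 and -0.15 in the same order.

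The genes most like each member over the 4 arrays were found by the distance between log2 profiles, each centred on its own mean, among 4763 gene symbols well above background on all 4. FKBP5 had the fewest close neighbours, with 1 gene within a distance of 0.5, PRDM1 at 0.45, followed by CEBPE at 0.63 and PLIN2 at 0.69. HSD11B1 had 5 within that distance, led by COX7A1 at 0.23, SYN1 at 0.25 and C1R at 0.34. The others had more, 18 for PER1 (nearest AQP5 at 0.08), 22 for TSC22D3 (RUNDC3A at 0.16), 109 for SGK1 (SCAMP5 at 0.08) and 610 for NR3C1 (STEAP1 at 0.05). With 4 points such likeness is a description only.

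Cell type markers bear on all these comparisons. Of 10 adipocyte markers 7 were well above background in PIP, pMA and after serotonin and 8 after TNF-α, and their summed level, on a linear scale where 1 is the 75th percentile, was 1.98 in PIP, 5.56 in pMA, 18.1 after serotonin and 11.6 after TNF-α. Most of that sum on the serotonin array was LPL and CD36, while FABP4, a fatty acid binding protein, was 6.83-fold lower after serotonin than in pMA. Between PIP and pMA, CD36, a fatty acid transporter, went from -3.99 to 1.18, CIDEC, a lipid droplet protein, was 14.7-fold higher, FABP4 at least 8.48-fold higher and PPARG, the leading transcription factor of fat cells, 2.10-fold higher. Higher in pMA by less than 2-fold were DGAT2 (1.72-fold), LPL (1.30-fold) and LEP (1.24-fold). PLIN1, which coats the lipid droplet, was not well above background on any array. CEBPA was well above background on the TNF-α array alone. ADIPOQ, the gene of adiponectin, was so in PIP but not on any pMA array. Its levels were faint, at -4.53 in PIP and -4.83 in pMA. The faintest signal well above background was higher in pMA (-4.64) than in PIP (-5.13). This gave only a bound, at least 1.08-fold lower in pMA, so a loss of ADIPOQ with differentiation cannot be read from the calls. Of the defining markers of a mature fat cell some were thus higher in pMA, while PLIN1, ADIPOQ and CEBPA were not detected in pMA. Of 6 muscle markers 4 were well above background on each array, with MYOD1 and MYF5 on none, and their summed level was 642 in PIP, 657 in pMA, 175 after serotonin and 610 after TNF-α, almost all of it ACTA1. Endothelial markers summed to 1.59 in PIP, 1.16 in pMA, 0.483 after serotonin and 1.16 after TNF-α, with CDH5 and TEK below background throughout. Macrophage markers summed to 1.36, 1.89, 1.86 and 2.97 in the same order, with CD163 below background. Of 6 preadipocyte and fibroblast markers on the array 5 or 6 were well above background, at 429 to 542, with VIM the brightest. Among them, COL1A1 was 2.66-fold lower and NT5E 2.77-fold higher after serotonin than in pMA. The adipocyte sum thus differed in all comparisons. The muscle and endothelial sums were lowest on the serotonin array, and the macrophage sum was highest on the TNF-α array. The part of these differences in the ratios of the members was not tested. In these bulk cultures fewer cells of a type and less RNA per cell cannot be told apart.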

How the data were processed

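RNA pooled within each of 4 groups was hybridised to 1 porcine Agilent array per group, all on 1 slide and in 1 scan. The authors deposited Agilent Feature Extraction 10.7.3.1 scanner files (version per the submitters' processing notes), whose processed signal is a background-subtracted intensity, and a value table. The ratio of each array's signal to that table was constant, so the deposited table holds the same intensity divided by 1 constant per array, which was not the percentile used here. The methods name GeneSpring and limma and in places describe another array and 2 colors, whereas the files hold 1 color and porcine probes.

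For each array, log2 of the processed signal minus its 75th percentile over non-control, non-outlier spots was used, and spots of 1 probe were averaged. A probe not well above background on 1 array gave a lower bound against the higher of its own signal and the faintest signal well above background there. Where both were dim no ratio was given. The brightest probe, by its mean over the 4 arrays, stood for a gene, and a ratio of at least 2-fold was counted, since 1 array per group allows no test. Gene symbols are names on the array that match a symbol or synonym in the RefSeq or gene name tables (6434 of 34853 names). List genes were matched by name alone, so probes under another name would be missed. All 8 members were named whatever their values, and from each of 9 lists at most the 3 largest measured changes in each direction of a comparison, lower bounds past 2-fold, and the 3 profiles nearest to each member. Further genes were named after their values were seen: FKBP4, TSC22D2, DUSP7, cell type markers and genes listed as dim. Members and lists were chosen with earlier results of these data known. Alternatives were another background correction (normexp with an offset of 50, limma 3.58.1), median, quantile and spike-in scaling, the authors' table, filters on dim probes, the median over probes, and cutoffs of 1.5-fold and 4-fold. The calculation was tested on simulated arrays (Python 3.11.15, pandas 2.3.3). The number of arrays limits the precision. No genome of the array's build was at hand, so positions are those on the source transcript, and promoter and protein sequences were not used here.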

Additional observations from a re-analysis of the deposited data

How the results depend on the processing

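No paired analysis was possible because each group had 1 array, and none could be left out. Of the 10 alternatives, the other cutoffs changed most counts. With 1.5-fold in place of 2-fold, 6 members passed in pMA against PIP and 6 on all 3 pMA arrays, 2 after serotonin, 2 after TNF-α and 3 between serotonin and TNF-α. With 4-fold, 2 passed in pMA against PIP and 2 on all 3 pMA arrays, and 0 after TNF-α and 0 between the stimulations. For the counts on all 3 pMA arrays the share of gene symbols is given at 2-fold only. Of all gene symbols 17.5% were at least 1.5-fold higher in pMA against PIP, 8.21% after serotonin and 7.04% after TNF-α. Between serotonin and TNF-α 436 were higher and 717 lower of 5469. At 4-fold 0.924% were higher in pMA against PIP and 0.743% after TNF-α, and between the stimulations 26 were higher and 79 lower. Over the 114 list genes on the array, 24 in pMA against PIP became 45 and 9, 24 after serotonin became 37 and 9, 18 after TNF-α became 32 and 7, and 22 between the stimulations became 36 and 10. These counts hold both directions, and some of the 114 genes had no ratio. Of 5087 gene symbols in pMA against PIP, 379 were higher and 244 lower at 2-fold. These were 891 and 677 at 1.5-fold and 47 and 62 at 4-fold. After serotonin, of 5117, they were 126 and 249, 420 and 575, and 24 and 42 in the same order. After TNF-α, of 5252, they were 158 and 62, 370 and 219, and 39 and 7. Between the stimulations 116 were higher and 345 lower of 5469 at 2-fold. Normexp background left 0 members at 2-fold after TNF-α and 3 in pMA against PIP, in both cases through HSD11B1. With it 1.75% and 2.70% of gene symbols were at least 2-fold higher in these comparisons. Median scaling gave 2 members between serotonin and TNF-α, with SGK1 at 1.04, where 160 gene symbols were higher and 285 lower of 5446. Spike-in scaling gave 6 members in pMA against PIP, beside 16.5% of gene symbols higher. The median over probes gave 3, beside 7.13%, with HSD11B1 at 0.79 and NR3C1 at 0.05. The share of higher calls among gene symbols called in pMA against PIP was 60.8%, and it was 24.9% with median scaling, 86.6% with spike-in scaling and 44.5% with normexp; between serotonin and TNF-α it was 25.2%, and 36.0% with median scaling, and in serotonin against pMA 33.6%, and 45.8% with spike-in scaling. For FKBP5, TSC22D3 and PER1 pMA against PIP was at least 2-fold in all 9 settings with a ratio. Of the member ratios, 170 stayed within 0.18 (the SD of a ratio from repeated spots on the noisiest array) and 22 moved by more. Signs changed for 2 small ratios, PER1 for TNF-α against pMA (-0.03 with median scaling) and NR3C1 for serotonin against TNF-α (-0.19 with the median over probes). Another probe annotation was not run, since a search by accession found 0 further member probes. HSD11B1 sat near background, which limits its ratios, and the cause of these shifts was not tested.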
